A study of Mus musculus with 8 samples.

Results

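The genes described here encode spondins, thrombospondins and other matricellular proteins, 10 genes chosen by name out of the 30153 in the table: Spon1, Spon2, Thbs1, Thbs2, Thbs4, Postn, Sparc, Sparcl1, Tnc and Tnxb. Their levels were read from heart RNA of aged C57/BL6 mice that overexpress, per the series title, the human angiotensin type 1 receptor, here in the form labelled Haplotype-II. The 4 control libraries are from aged Haplotype-II mice, and 4 more are from such mice kept on a western diet. All 8 libraries thus carry the human haplotype and are aged, and no young or non-transgenic hearts were compared. The labels give neither the promoter of the transgene nor the age, the sex or how long the diet lasted. Nor do they tie a library to 1 animal, and the tests below measure the spread between libraries, which may be partly technical.

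Matricellular proteins are secreted into the extracellular matrix but are mainly modulators and not load-bearing fibres. They bind collagens, growth factors such as TGF-beta, proteases and cell surface receptors such as integrins, CD36 and CD47. Many of them are kept low in the healthy adult heart and are known to increase after infarction, pressure overload and in fibrosis.

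Each value is a gene-level abundance in TPM, a unit scaled for transcript length and library total, so levels can be compared between genes. Sparc, at a mean of 116.8 TPM over the 8 libraries, and Sparcl1, at 113.6 TPM, were the most abundant of the 10. Together they made up 85.5 to 90.3% of the summed TPM of the 10 genes. Sparc was above Sparcl1 in 6 of 8 libraries, and their means differed by a factor of 1.03. Postn followed at 14.4 TPM and was above Thbs2, at 5.08 TPM, in 8 of 8 libraries. Thbs2 and Spon1, at 4.699 TPM, were close, with Thbs2 higher in 6 of 8 libraries. Spon2 (2.85 TPM), Thbs1 (2.56 TPM) and Thbs4 (1.74 TPM) came next, and neighbours in this order changed places in 2 or 3 of the 8 libraries. Tnxb (0.639 TPM) and Tnc (0.172 TPM) were lowest, and they failed the minimum of 1 TPM in at least 4 libraries that a gene needed to be tested. Of the 10 genes 8 were therefore tested, within the 10969 genes tested in all.

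**Figure D1:**
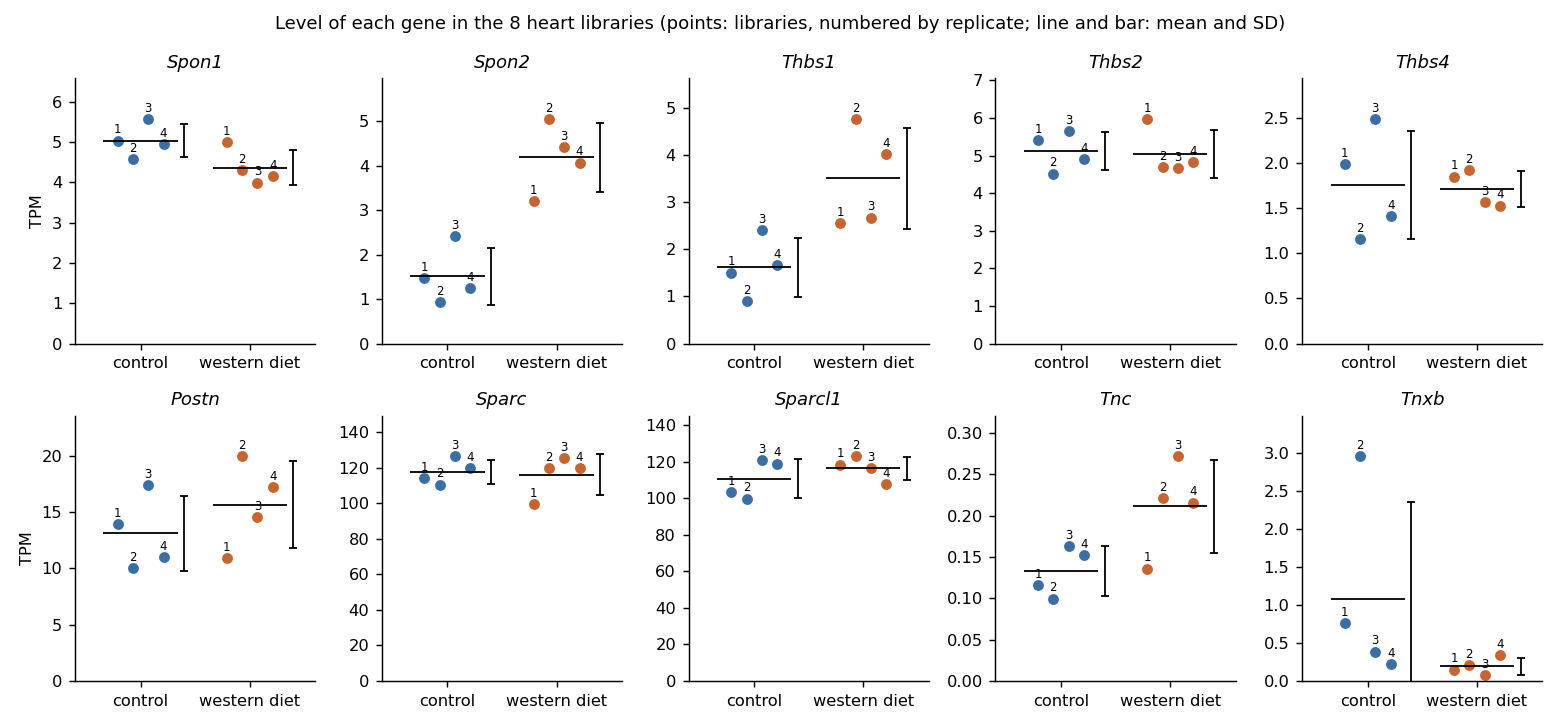
TPM of each of the 10 genes in the 4 control and 4 western diet libraries, on axes that start at 0. Points are libraries numbered by replicate, the line is the group mean and the bar 1 SD, which for Tnxb in control runs below 0 and is cut at the axis. Only Spon2 and Thbs1 have all 4 western diet libraries above all 4 controls.

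The design sets the diet against its control to ask which heart transcripts differ. Spon2 stood 2.76-fold higher in mean TPM with western diet, and Thbs1 2.17-fold higher without passing the test. Y-linked transcripts, given below, nearly separate the groups, so diet and sex cannot be fully told apart. The groups of the other 6 tested genes overlapped, including those of the relatives Spon1, Thbs2 and Thbs4, and none of the 6 passed the test. Of the 8 tested genes 1 passed an adjusted p of 0.05 over all genes (limma on log2(TPM + 1), Benjamini-Hochberg), and it was higher with western diet. Over all genes tested 0.301% passed, 0.228% as higher and 0.0729% as lower. The 10 genes were named with results of this comparison in view, so each fold change and p places a gene in the whole table and is not independent evidence. The median log2 fold change of the 8 was 0.04, against 0.06 over all genes tested, with 4 of the 8 above 0 against 66.4% of all genes.

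Spon2 (ENSMUSG00000037379, chromosome 5, 33198184 to 33218455 of GRCm38, minus strand) encodes spondin 2, also called mindin, a secreted protein with a thrombospondin type repeat that binds integrins of leukocytes and bacterial surfaces. The control libraries held 1.47, 0.935, 2.42 and 1.24 TPM in replicates 1 to 4. The western diet libraries held 3.21, 5.06, 4.42 and 4.07 TPM. The lowest western diet library, replicate 1, lay above the highest control, replicate 3, so the groups did not overlap. The log2 fold change was 1.06 (SE 0.18, 95% confidence interval 0.68 to 1.45, limma adjusted p = 0.0319), which placed Spon2 at rank 28 of all genes tested by p. Because 1 TPM is added before the logarithm, this fold change is smaller than the 2.76-fold ratio of the mean TPM, 4.19 ± 0.768 over 1.52 ± 0.640 (SD, n = 4 per group).

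The call of Spon2 depended on which libraries and genes were kept. Leaving out control replicate 1, 2 or 4 gave a limma adjusted p of 0.0951, 0.125 or 0.0988, and leaving out western diet replicate 2 or 3 gave 0.0783 or 0.0552. With no filter on low genes it was 0.175. The call held without control replicate 3 (limma adjusted p = 0.0178), western diet replicate 1 (0.0346) or western diet replicate 4 (0.0452). In 11 of the 19 alternatives that could fit Spon2 it passed and in 8 it did not, with a log2 fold change between 0.95 and 1.47 in all 19.

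Spon1 (ENSMUSG00000038156, chromosome 7, 113765998 to 114043370) encodes F-spondin, which binds the amyloid precursor protein and receptors of the low-density lipoprotein receptor family. It went the other way in mean, with 5.04, 4.57, 5.58 and 4.94 TPM in the controls and 5.003, 4.299, 3.997 and 4.17 TPM in the western diet libraries. Western diet replicates 2, 3 and 4 were below every control, while replicate 1 was within the control range. Its log2 fold change of -0.17 (SE 0.10, interval -0.40 to 0.06) did not pass (limma adjusted p = 0.566).

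Thrombospondins are multimeric calcium-binding glycoproteins. Thrombospondin 1 and thrombospondin 2 form trimers, inhibit angiogenesis through CD36 and CD47, and thrombospondin 1 activates latent TGF-beta. Thbs1 (ENSMUSG00000040152, chromosome 2, 118111876 to 118127133) was at 1.51, 0.899, 2.41 and 1.66 TPM in the controls and at 2.56, 4.77, 2.67 and 4.02 TPM in the western diet libraries. Western diet replicates 2 and 4 were the high ones, and the lowest western diet library exceeded the highest control by a small margin. Its log2 fold change was 0.78 (SE 0.20, interval 0.34 to 1.22), and Thbs1 ranked 179 by p, with a limma adjusted p of 0.146. It did not pass in any of the 19 alternatives that could fit it (adjusted p from 0.0732 to 0.392).

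Spon2 and Thbs1 were thus 2 of the 8 tested genes whose groups did not overlap, both higher. Among all genes tested 6.60% had groups that did not overlap, 4.85% as higher and 1.75% as lower.

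**Figure D2:**
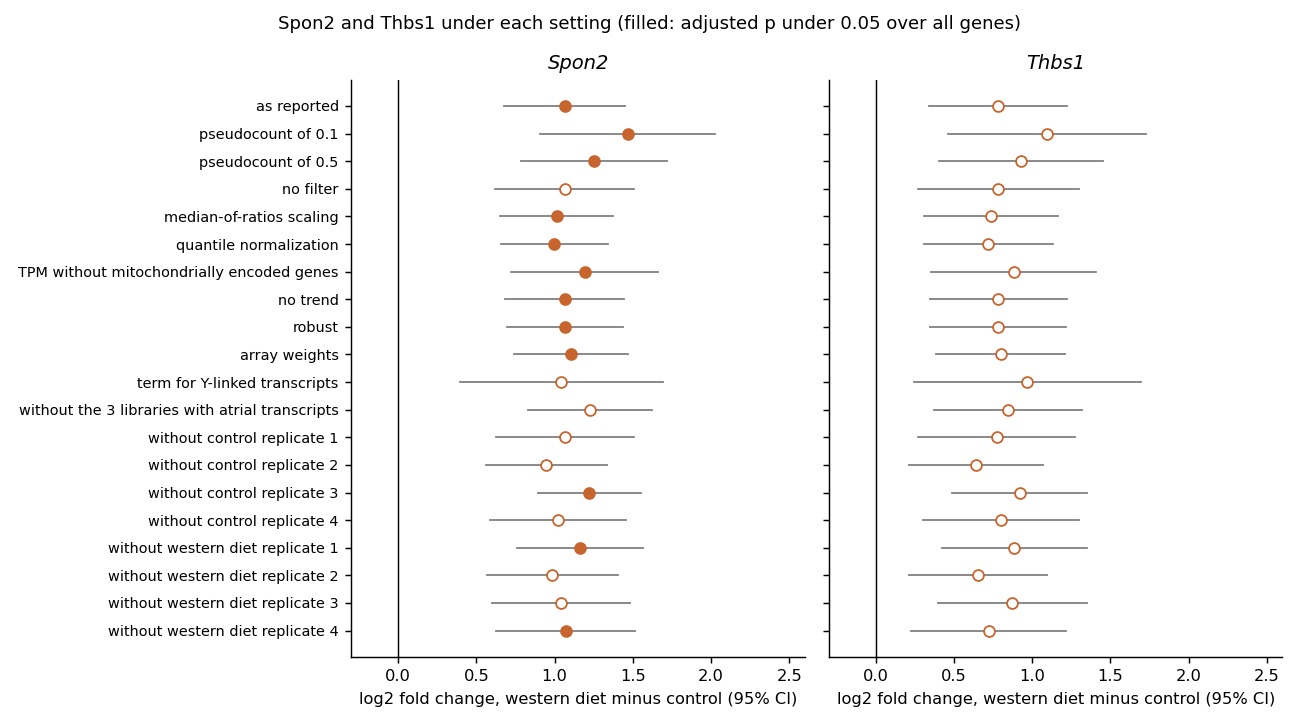
Log2 fold change of Spon2 and Thbs1, western diet minus control, with its 95% confidence interval, as reported and under each of 19 alternative settings (horizontal axis in log2 units, 1 row per setting). Filled points have a limma adjusted p under 0.05 over all genes. All intervals lie above 0, Spon2 is filled as reported and in 11 alternatives, and Thbs1 is filled in 0.

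Thbs2 (ENSMUSG00000023885, chromosome 17, 14665500 to 14694235) was at 5.12 ± 0.508 TPM in control and 5.04 ± 0.629 TPM with western diet (SD, n = 4 per group). Western diet replicate 1, at 5.97 TPM, was the highest of all 8 libraries, and the other western diet libraries lay between 4.67 and 4.82 TPM. Diet and control differed by a log2 fold change of -0.02, with an interval of -0.27 to 0.22. Thbs4 (ENSMUSG00000021702, chromosome 13, 92751590 to 92794818) forms pentamers and is known to be induced in the overloaded heart. It was at 1.76 ± 0.597 TPM in control and 1.71 ± 0.197 TPM with western diet. Its log2 fold change was -0.0009, with an interval of -0.33 to 0.33. The controls alone spread by a factor of 2.16, from 1.15 TPM in replicate 2 to 2.49 TPM in replicate 3, and the western diet libraries by 1.26. The thrombospondin genes shared no word of 31 bases with each other in the GENCODE transcripts, whereas 2.68% of the words of Thbs1 also occur elsewhere, mostly in the antisense gene Gm29233.

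Postn (ENSMUSG00000027750, chromosome 3, 54361109 to 54391037) encodes periostin, a collagen-binding protein that marks activated cardiac fibroblasts. It was at 13.96, 10.04, 17.4 and 11.0 TPM in the controls and at 10.9, 19.98, 14.6 and 17.2 TPM in the western diet libraries. Both groups spanned about the same range, with control replicate 3 and western diet replicate 2 high and control replicate 2 and western diet replicate 1 low. Its log2 fold change was 0.24 (SE 0.19, interval -0.19 to 0.67, limma adjusted p = 0.681).

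Tenascin C (Tnc, ENSMUSG00000028364, chromosome 4, 63959785 to 64047015) is an adhesion-modulating glycoprotein that is scarce in the adult heart and reappears at sites of injury. It was at 0.116, 0.0996, 0.163 and 0.152 TPM in the controls and at 0.136, 0.221, 0.272 and 0.216 TPM with western diet. Western diet replicates 2, 3 and 4 were above every control and replicate 1 was not. These levels were below the minimum for testing, and without that minimum the limma adjusted p was 0.527.

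Tenascin X (Tnxb, ENSMUSG00000033327, chromosome 17, 34670535 to 34719815) supports collagen fibril spacing in connective tissue. A single library set its control mean. Tnxb was at 2.96 TPM in control replicate 2, against 0.765, 0.385 and 0.225 TPM in control replicates 1, 3 and 4, and at 0.148, 0.207, 0.0756 and 0.339 TPM in the western diet libraries. Control replicate 2 was the lowest control for the other 9 genes. Without the minimum for testing the limma adjusted p of Tnxb was 0.624. Of the 31-base words in its transcripts 9.76% also occur in other genes, nearly all in the neighbouring pseudogene Tnxa, so reads could be split between them.

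Sparc (ENSMUSG00000018593, chromosome 11, 55394500 to 55423183) encodes osteonectin, a collagen chaperone of the matrix that is needed for collagen fibril maturation in the heart. It was at 113.9, 110.4, 126 and 119.5 TPM in the controls and at 99.4, 119.5, 125 and 119.9 TPM with western diet. The groups overlapped almost fully, with western diet replicate 1 alone below every control. The log2 fold change was -0.02 (SE 0.09, interval -0.22 to 0.18). Sparcl1 (ENSMUSG00000029309, chromosome 5, 104079111 to 104113733) encodes hevin, the closest relative of Sparc. It was at 111 ± 10.7 TPM in control and 116 ± 6.37 TPM with western diet (SD, n = 4 per group), with a log2 fold change of 0.07 (interval -0.12 to 0.27). These were the narrowest intervals of the 8 genes, and both lie within a change of 0.3 in log2 units.

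RefSeq promoter sequences on GRCm38.p6, which run from 250 bases before to 50 bases after a gene's start, matched 6 of the 10 genes: Thbs2, Thbs4, Postn, Sparc, Tnc and Tnxb. Those of Sparc and Postn are printed because these were the most abundant of the 6 and differ in their core elements. Capitals mark matches on either strand to the TATA box (TATAAA) or to CAGACA, a motif bound by SMAD proteins of the TGF-beta pathway. The windows are chr11:55420031-55420330 on the minus strand for Sparc and chr3:54360857-54361156 on the plus strand for the start of Postn nearer to its GENCODE gene start.
Sparc: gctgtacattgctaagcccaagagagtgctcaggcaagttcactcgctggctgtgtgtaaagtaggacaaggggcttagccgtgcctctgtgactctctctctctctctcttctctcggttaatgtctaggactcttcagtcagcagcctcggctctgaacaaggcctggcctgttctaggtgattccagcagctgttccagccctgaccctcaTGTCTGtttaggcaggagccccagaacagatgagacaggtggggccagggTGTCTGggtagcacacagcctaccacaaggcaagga
Postn: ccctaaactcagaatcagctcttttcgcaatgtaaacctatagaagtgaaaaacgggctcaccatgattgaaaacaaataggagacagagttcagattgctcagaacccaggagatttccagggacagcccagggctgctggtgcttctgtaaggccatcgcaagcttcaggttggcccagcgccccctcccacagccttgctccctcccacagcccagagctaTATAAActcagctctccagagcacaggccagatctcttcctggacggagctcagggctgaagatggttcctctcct
The Postn window held TATAAA 26 bases before the start. The Sparc window held no TATAAA and 2 copies of CAGACA, both as the reverse complement, at 36 bases before and 14 bases after the start. Among all 32851 promoters of this length TATAAA was present in 13.6% and CAGACA in 21.04%, and neither motif overlapped another searched motif in these windows. Also searched on both strands were CCAAT, known to be bound by NF-Y, the GC box GGGCGG of Sp1, and the AP-1 motif TGANTCA, and none was found in these windows. The Thbs4 window held 3 copies of GGGCGG (in 35.7% of all promoters) and 24 CpG dinucleotides against a median of 7. Thbs2 held 2 copies each of CCAAT and CAGACA and 1 of TATAAA, and Tnxb held TGANTCA, which is in 7.81% of all promoters.

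Within the groups some of the genes ordered the libraries alike. Control replicate 2 was the lowest control for 9 of the 10 genes and control replicate 3 the highest for 9 of 10. Over all genes tested those libraries were lowest for 57.3% and highest for 50.7%, so this order is shared with much of the transcriptome. Among western diet libraries replicate 2 was the highest for 5 of the 10 and the lowest for 0, against 41.6% and 5.598% of all genes. Western diet replicate 1 was the lowest for 5 of the 10, where it was lowest for 15.3% of all genes. Of the 12 pairs of libraries of the same group, Postn ordered 11 as Spon2 did and 11 as Thbs1 did. The median gene matched Postn in 7 and Spon2 or Thbs1 in 8. Spon1 with Thbs2 and Thbs4 with Sparcl1 also matched in 11 of 12, against 7 to 9 for the median gene. Sparc and Spon1 agreed in order in 5 of 12 pairs. The matches of 11 were picked as the highest among the tested genes described here. Other combinations lay near the median gene, such as Spon1 with Spon2 (8 of 12) and Thbs1 with Thbs2 (7 of 12). How often 2 tested genes reach 11 was not counted, so these matches are no evidence of shared regulation.

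For 3 of the genes those with the most similar pattern over the 8 libraries were looked up, by the root-mean-square difference of z-scored log2(TPM + 1). Picked for likeness from the tested genes, they order the libraries alike by choice, which is no separate evidence. Ttll5 (0.142 SD) and Arntl (0.159 SD) were nearest to Spon2 and ordered the 28 pairs of libraries exactly as Spon2 did, followed by Mdfic, Emp1 and Nacc2. Arntl encodes BMAL1, an activator of the circadian clock. Col1a1, the main collagen of scar tissue, was nearest to Thbs1 at 0.182 SD and ordered 26 of 28 pairs alike, followed by Zmat3, Clip2, Dhx32 and Parg. Cd93 (0.226 SD), mt-Nd5, Tmx2, Qrsl1 and Cdh5 were nearest to Sparc. Cd93 and Cdh5 are endothelial surface proteins.

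Lists of related genes were read beside all genes tested, of which 11.7% had an unadjusted p under 0.05 and 66.4% a log2 fold change above 0, with a median of 0.06. With a term for Y-linked transcripts, where the diet estimate rests on western diet replicate 4, the median of all genes was -0.07. Of 20 tested genes in the list of other matricellular and small matrix proteins 0 passed over all genes, 7 had an unadjusted p under 0.05, and the median log2 fold change was 0.02 with 11 above 0. That median was below 0 in 7 alternatives, among them both other scalings (-0.03 with median-of-ratios and -0.04 with quantile scaling) and the Y-linked term (-0.08). With these 2 scalings the median of all genes tested was also below 0, at -0.0054 and -0.0101. Ccn5, an antifibrotic member of the CCN family, was at 5.897 ± 1.85 TPM in control and 2.34 ± 1.23 TPM with western diet without overlap (limma adjusted p = 0.106). Its log2 fold change was -1.08 as reported, -1.30 without western diet replicate 4, where it passed (limma adjusted p = 0.0203), and -0.40 with the Y-linked term (limma adjusted p = 0.811). Western diet replicate 4, at 4.11 TPM, lay just below the lowest control, at 4.28 TPM. Thbs3, another pentameric thrombospondin, was at 2.51 ± 0.631 and 3.795 ± 0.569 TPM, Mfap5 of microfibrils at 11.8 ± 2.84 and 17.4 ± 3.56 TPM, and Smoc2, a relative of Sparc, at 23.7 ± 3.38 and 34.3 ± 8.27 TPM, with limma adjusted p of 0.245 to 0.265. Mfap5 went from a log2 fold change of 0.53 to 0.18 with the Y-linked term and Smoc2 from 0.50 to 0.02, and without the 3 libraries rich in atrial transcripts Smoc2 was at 0.33. Spp1, osteopontin, was too low to be tested and was singled out after its values were seen. It was at 0.267, 0.124, 0.203 and 0.103 TPM in control and 0.531, 1.12, 0.682 and 0.880 TPM with western diet. The western diet libraries also held the kidney transcripts given below, and whether these contribute to Spp1 was not tested.

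Of 34 tested receptors and binding partners 0 passed, 7 had an unadjusted p under 0.05 and the median was 0.08 with 22 above 0. The median was -0.01 both with quantile scaling and with the Y-linked term. Itgb2, the beta chain of leukocyte integrins that bind spondin 2, was at 1.91 ± 0.276 TPM in control and 3.03 ± 0.490 TPM with western diet without overlap (limma adjusted p = 0.163). Its partner chain Itgam was at 0.961 ± 0.0554 and 1.31 ± 0.165 TPM, also without overlap (limma adjusted p = 0.398). Cd36, which binds thrombospondin 1, was at 308 ± 28.2 and 360.4 ± 29.5 TPM (limma adjusted p = 0.394), and Cd47 at 10.6 ± 1.36 and 10.96 ± 1.10 TPM. Annexin A2 (Anxa2), syndecan 3 (Sdc3) and the innate immune receptor Tlr4 had the next smallest p, with limma adjusted p of 0.189 to 0.280 and log2 fold changes of 0.37 to 0.39. With the Y-linked term Itgb2 went from 0.47 to 0.23 and Anxa2 from 0.39 to 0.18. Itgam, Cd36 and Cd47 were chosen for their role after values were seen. All receptors named so far were higher in mean, whereas 12 of the 34 had a log2 fold change below 0. Among these 12 was the integrin chain Itgav, at 5.52 ± 1.495 TPM in control and 3.90 ± 0.796 TPM with western diet. Its log2 fold change was -0.39 (limma adjusted p = 0.441), and it too was picked after values were seen.

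Of 22 tested genes of TGF-beta signalling 0 passed, 4 had an unadjusted p under 0.05, and the median was 0.17 with 18 above 0, but -0.05 with the Y-linked term. Pmepa1, a feedback inhibitor induced by TGF-beta, was at 5.92 ± 0.821 TPM in control and 10.3 ± 2.21 TPM with western diet without overlap (limma adjusted p = 0.0749). Ski, a repressor of SMAD activity, and Eng, a co-receptor, had limma adjusted p of 0.328 and 0.403. Ski went from 0.39 to 0.14 with the Y-linked term, and Eng from 0.22 to 0.15 with median-of-ratios scaling.

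Of 31 tested collagens and collagen-processing genes 0 passed, 17 had an unadjusted p under 0.05 and the median was 0.29 with 28 above 0. Col14a1, Col5a3 and Col4a2 encode collagen chains and P4ha1 a prolyl hydroxylase. They had the smallest p of the list, with limma adjusted p of 0.0744 to 0.140 and log2 fold changes of 0.41 to 1.08. With the Y-linked term Col14a1 went from 1.08 to 0.37 (limma adjusted p = 0.737), while the median of the list was 0.29 with and without it. Of 24 tested proteases and inhibitors 0 passed, 7 had an unadjusted p under 0.05 and the median was 0.10 with 16 above 0. Adamts9, which cleaves proteoglycans, was at 2.75 ± 0.295 and 4.61 ± 0.976 TPM without overlap (limma adjusted p = 0.114). Plat, the tissue plasminogen activator, had the smallest p of the list (limma adjusted p = 0.112), and Mmp14 and Adam15 had 0.194 and 0.263. With the Y-linked term Adamts9 went from 0.57 to 0.34 and Adam15 from 0.47 to 0.22.

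**Figure D3:**
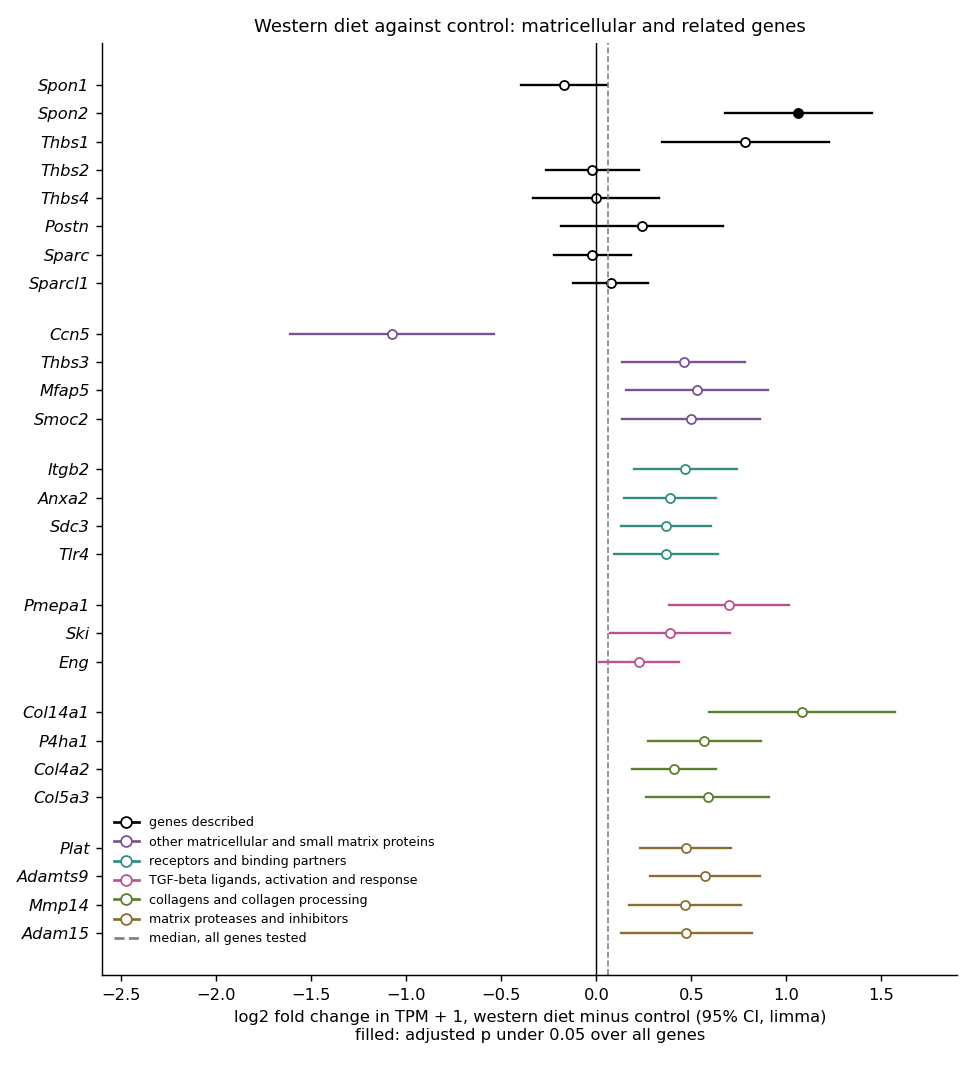
Log2 fold change in TPM + 1, western diet minus control, with its 95% confidence interval, for the 8 tested genes and the named genes of 5 related lists, those of smallest p. Filled points passed an adjusted p of 0.05 over all genes, which only Spon2 did, and the dashed line is the median of all genes tested, 0.06.

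**Figure D4:**
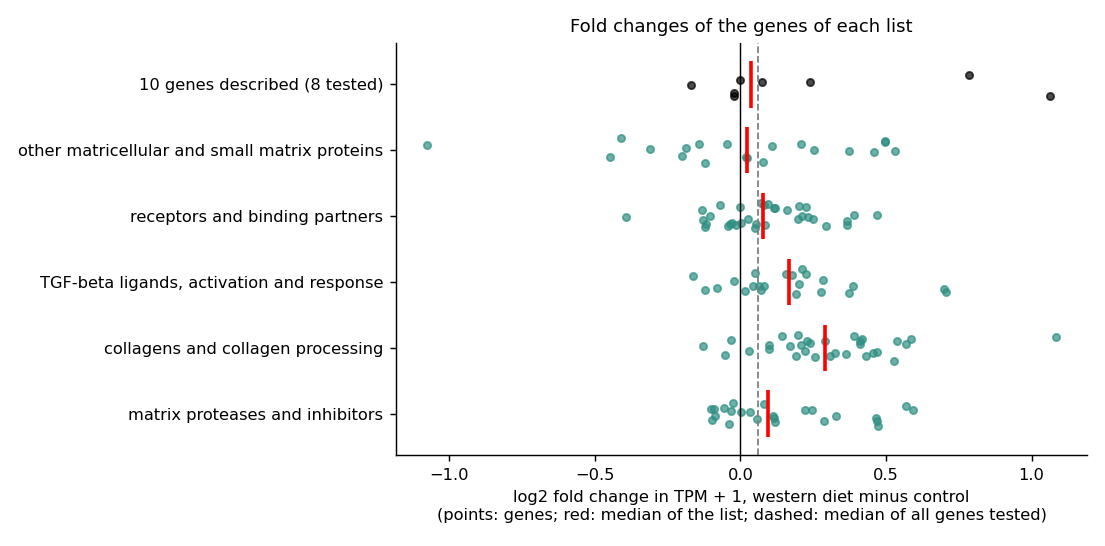
Log2 fold change in TPM + 1, western diet minus control, for each tested gene of the 10 described here and of 5 related lists (horizontal axis). Points are genes and the red line is the median of the list, which ran from 0.02 for other matricellular proteins to 0.29 for collagens, against 0.06 for all genes tested (dashed).

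Markers of cell types and tissues were summed in each library, and how they vary with the genes above was not tested. Cardiomyocyte markers summed to 50600 to 55050 TPM in control and 42580 to 53080 TPM with western diet. Of their log2 fold changes 4 of 10 were above 0, against 66.4% of all genes tested. Endothelial markers summed to 870 to 932 TPM and 904 to 1181 TPM, with 6 of 10 above 0. In these 2 lists 0 passed the threshold. The 10 fibroblast markers summed to 700.4 to 1017 TPM in control and 731 to 1035 TPM with western diet. Of their log2 fold changes 9 of 10 were above 0, against 66.4% of all genes tested, and 0 passed the threshold. The activated fibroblast list, which holds Postn and Tnc, summed to 39.01 to 61.9 TPM in control and 67.2 to 131 TPM with western diet without overlap. Most of that sum was Acta2, also a smooth muscle gene, at 33.4 ± 5.985 and 80.8 ± 29.1 TPM (limma adjusted p = 0.0630). Smooth muscle and pericyte markers summed to 714 to 796 TPM and 742 to 898 TPM. Of the 9 tested only Tagln passed, as lower (limma adjusted p = 0.0169), with 16.2 to 21.07 TPM in the control libraries and 7.925 to 10.9 TPM in the western diet libraries. Of these 9 genes 3 were lower and 1 higher without overlap, against 1.75% and 4.85% of all genes tested. Macrophage markers summed to 206 to 254 TPM in control and 226 to 369 TPM with western diet. Their sum was above every control only in western diet replicate 1. All 9 tested had a log2 fold change above 0, against 66.4% of all genes tested, and 0 passed the threshold. Neutrophil markers summed to 4.29 to 8.47 TPM and 9.63 to 17.6 TPM, with S100a8 past the threshold and Elane at 0 in every library. Of these 8 markers only S100a8 and S100a9 could be tested, and they made up most of the sum. S100a8 was at 1.34 ± 0.3435 and 3.83 ± 1.19 TPM, and S100a9 at 3.27 ± 1.26 and 6.84 ± 2.185 TPM. Of the markers too low to be tested some had a higher mean with western diet and Mpo a lower one. Platelet markers, which accompany a cell type rich in thrombospondin 1, summed to 21.9 to 28.6 TPM and 16.8 to 29.2 TPM, and the 2 that could be tested had lower means with western diet. Most of that sum was Pf4, at 19.5 ± 1.445 and 17.45 ± 5.37 TPM. Pf4 was highest in western diet replicate 1, at 25.5 TPM, the library where the macrophage sum was also highest. Libraries also stood apart from the rest. Y-linked transcripts summed to 38.6 to 52.6 TPM in the controls and 41.3 TPM in western diet replicate 4. Western diet replicates 1, 2 and 3 had 0.227 to 0.270 TPM. The labels give no sex, but Y-linked transcripts come from male animals. Diet and sex thus nearly coincide, except in western diet replicate 4, and cannot be fully told apart. Kidney markers summed to at most 0.767 TPM in control and to 9.61 to 79.5 TPM with western diet, with replicate 4 highest. Kap, the only one tested, passed as higher (limma adjusted p = 0.0169), at a mean of 0.249 TPM in control and 25.5 TPM with western diet. Atrial markers summed to 908, 6276 and 1576 TPM in control replicates 1 and 3 and western diet replicate 2, and to 79.6 to 180 TPM elsewhere. Those control libraries held the 2 highest control levels of Spon2, and that western diet library the highest of all. Without these 3 libraries the log2 fold change of Spon2 was 1.23 (limma adjusted p = 0.0531) and that of Thbs1 0.84 (limma adjusted p = 0.316). With a term for Y-linked transcripts, whose diet estimate rests on western diet replicate 4, Spon2 was at 1.04 (SE 0.29, limma adjusted p = 0.254) and Thbs1 at 0.97 (SE 0.32, limma adjusted p = 0.391). Without western diet replicate 4, which held the most kidney transcripts, Spon2 and Thbs1 were at 1.07 and 0.72. The remaining western diet libraries still held more kidney transcripts than every control, so this cannot separate them from the diet. The part of the cardiomyocyte, endothelial, fibroblast, smooth muscle, macrophage, neutrophil and kidney markers in these values was not tested. In bulk tissue, more cells of a type and more RNA per cell cannot be told apart.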

How the data were processed

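Heart libraries from 4 control and 4 western diet samples were compared. Per the labels' protocols, RNA was column-purified and stranded libraries were made from polyadenylated RNA. The authors deposited gene-level TPM per library, whose columns sum to 941318 to 953448. Named in the submitters' processing notes, without version or role, are kallisto, DESeq2 and GRCm38. For the annotation release, and for how transcripts were summed to genes, nothing is stated there. TPM keeps no read depth, so no counting error or detection limit is given, and the number of libraries sets the precision. Between 10620 and 11175 genes reached 1 TPM in a library.

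Names and coordinates (1-based) came from GENCODE vM21 on GRCm38, which named 29732 of 30153 rows. Testing used limma 3.58.1 (R 4.3.3) on log2(TPM + 1) for genes that reached 1 TPM in 4 or more libraries (group as the only term, trended empirical Bayes, two-sided, Benjamini-Hochberg over 10969 genes). Checked on simulated data in which 200 of 10969 genes differed, it recovered 92.0% of 2-fold and 98.6% of 4-fold changes in TPM + 1. Of the simulated calls 5.01% were false. The simulated noise was independent between genes, without the shifts that many genes share in these libraries or their imbalance of Y-linked transcripts. These rates may therefore not hold for the real data. Replicates are numbered in accession order and pair nothing.

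The members, lists and alternatives were chosen with earlier results of these data known. The naming rule took all 10 genes, list genes past the threshold or the 4 of smallest p per list (1 of these is not reported here), and the 5 nearest patterns for the genes of smallest p (Spon2), highest mean (Sparc) and widest spread within a group (Thbs1). Lists were described by counts and medians, without a list test. Alternatives were a pseudocount of 0.1 or 0.5, all genes unfiltered, a minimum mean of 5 TPM, quantile and median-of-ratios scaling, removal of mitochondrially encoded genes, other variance priors, library weights, a Y-linked term (from Eif2s3y, 1 TPM or more), removal of libraries with Myl7 of at least 100 TPM, and leaving out each library. Figures used Python 3.11.15 and matplotlib 3.10.9.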

Additional observations from a re-analysis of the deposited data

Results flagged for a closer look

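Among 60 combinations of a gene and a group of 4 libraries, 3 held a library whose gap to its nearest neighbour exceeded Dixon's 95% critical share of the group's range, and chance alone gives about 1 in 20. Thbs2 was at 5.97 TPM in western diet replicate 1, with the next library at 4.82 TPM and a gap of 0.884 of the range. Pmepa1 was at 4.704 TPM in control replicate 2, with the next at 6.17 TPM. Eng was at 54.9 TPM in western diet replicate 3, with the next at 65.02 TPM.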

How the results depend on the processing

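Of the 10 genes the count past the threshold was 1 as reported and 0 or 1 when each library was left out. It was 0 with no filter, with a mean of at least 5 TPM (where Spon2 was not tested), with the Y-linked term and without the 3 libraries with atrial transcripts. Over all genes 33 passed as reported, 8 to 95 when each library was left out, 5 with no filter, 15 with a mean of at least 5 TPM, 55 with quantile scaling, 108 with library weights, 54 with the Y-linked term and 5 without the atrial libraries. Of the calls 25 were higher and 8 lower as reported, against 35 and 20 with quantile scaling. In the related lists 0 passed as reported, 1 with median-of-ratios scaling (Plat), 2 with quantile scaling (Plat and Adamts9), 5 with library weights (Col14a1, Ccn5, Adamts9, Plat and Pmepa1), and 0 to 2 when each library was left out, the 2 being Col14a1 and Ccn5 without western diet replicate 4.

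Among the 10 genes sign changes occurred in 4, whose fold changes were near 0. The list medians of other matricellular proteins (-0.08 to 0.16), receptors (-0.01 to 0.11) and TGF-beta signalling (-0.05 to 0.20) also changed sign, and those of collagens (0.21 to 0.35) and proteases (0.02 to 0.15) did not. The median of all genes tested changed sign as well (-0.07 to 0.11). Thbs4 was at 0.0154 and 0.0051 with pseudocounts of 0.1 and 0.5, 0.0036 without mitochondrially encoded genes, 0.0138 with library weights, 0.21 without the atrial libraries and -0.11 to 0.12 when each library was left out. Thbs2 was at 0.10 without the atrial libraries and -0.0932 to 0.0191 when each library was left out. Sparc was at 0.0298 with the Y-linked term and -0.061 to 0.0497 when each library was left out. Sparcl1 was at -0.0032 with median-of-ratios scaling and -0.0338 with the Y-linked term. Spon1, Spon2, Thbs1 and Postn kept their sign in every alternative that could fit them. No paired analysis was possible because the labels give the libraries no shared replicate numbers. The cause of these changes was not tested, and TPM holds no depth by which to judge the low values of Tnc and Tnxb.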
